A study of Mus musculus with 20 samples.

Results

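The genotype by Ang II interaction is the difference between the response of Plod1-/- mice to Ang II and the response of WT mice to Ang II. It was measured in the abdominal aorta with all 20 libraries of the series, 5 mice in each of 4 groups. Plod1-/- mice lack lysyl hydroxylase 1 (LH1) in every cell, and WT mice carry the gene, both on a C57BL/6 background (C57Bl/6NCrl in the methods). The labels give an age of 6 months for all mice, while the study's methods describe male littermates of 16 weeks at pump implantation. Mice of each genotype received saline or Ang II (1000 ng/kg per minute) from an osmotic pump, and the aorta was taken on day 14. Each library is bulk RNA of 1 mouse's abdominal aorta, so a gene with fewer expressing cells and a gene with less RNA per cell cannot be told apart. Of the 43422 genes in the deposited FPKM tables, 13263 passed the filter (FPKM of 1 or more in 5 or more libraries) and were tested with limma on log2(FPKM + 1). The contrast was (Plod1-/- Ang II minus Plod1-/- saline) minus (WT Ang II minus WT saline). A gene is called where its Benjamini-Hochberg adjusted p is below 0.05 and its log2 estimate is above 1 in size. By this rule the interaction was called for 2129 genes, 16.1% of those tested. Of these, 1285 genes (9.69%) had a positive difference and 844 (6.36%) a negative one.

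LH1 hydroxylates lysine residues of collagen chains inside the endoplasmic reticulum, and the hydroxylysines it makes take part in the cross-links that lysyl oxidases form between collagen molecules outside the cell. Ang II is the effector peptide of the renin-angiotensin system. It raises blood pressure, acts on vascular smooth muscle and fibroblasts through a G protein-coupled receptor, and is widely infused into mice as a model of aortic aneurysm and dissection. An interaction can arise in 2 shapes. Both genotypes can move the same way by unequal amounts, or they can move in opposite directions, and the same interaction estimate does not tell these apart.

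In the libraries labelled Plod1-/-, Plod1 FPKM was between 0 and 0.0415, while in those labelled WT it was between 22.8 and 29.6, and its difference between the 2 responses was 0.03 ± 0.11 (limma adjusted p = 0.832). The defining smooth muscle marker Acta2 had FPKM between 1900 and 17700 in all 20 libraries, while Tagln, another marker of these cells, was listed at only 1.46 to 12.2. Depth is unknown, because the tables hold no counts. Some libraries stood apart from their groups. Ang II-treated WT mouse 4 had the lowest summed adipocyte markers of its group (1580, against 3870 to 5540 in the others). Ang II-treated WT mouse 1 had the highest summed macrophage markers of its group (2460, against 421 to 645), and Ang II-treated Plod1-/- mouse 1 had the highest summed smooth muscle markers of its group (21000, against 3220 to 8170). Saline-treated Plod1-/- mouse 5 and Ang II-treated Plod1-/- mouse 1 held Xist RNA (15.1 and 7.93 FPKM), although the methods describe male mice, and the counts were repeated without both. Over all genes tested, the median difference between the responses was 0.12 (log2), with a median response of 0.06 in Plod1-/- mice and -0.12 in WT mice. Quantile normalization brought the median difference to -0.01 and turned the 1285 positive and 844 negative calls into 1020 and 1095. After mitochondrial genes were left out and FPKM rescaled, the split was 1051 and 1017.

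The 2129 called genes were sorted into 4 classes by the signs and sizes of their 2 response estimates. In the class up in Plod1-/- and down in WT, 823 genes had a positive estimate in Plod1-/- mice and a negative one in WT mice. In the class down in Plod1-/- and up in WT, 402 genes had the reverse. A further 647 genes had the same sign in both genotypes and the larger size in Plod1-/- mice, and 257 had the same sign and the larger size in WT mice. The class names give signs of estimates and are no test. Opposite signs made up 57.5% of the called genes (1225) and 41.3% of all genes tested. In Plod1-/- mice the Ang II response itself was called for 1870 genes (14.1%), 1179 of them higher (8.89%) and 691 lower (5.21%) under Ang II, and in WT mice for 1134 (8.55%), 834 higher (6.29%) and 300 lower (2.26%).

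**Figure D1:**
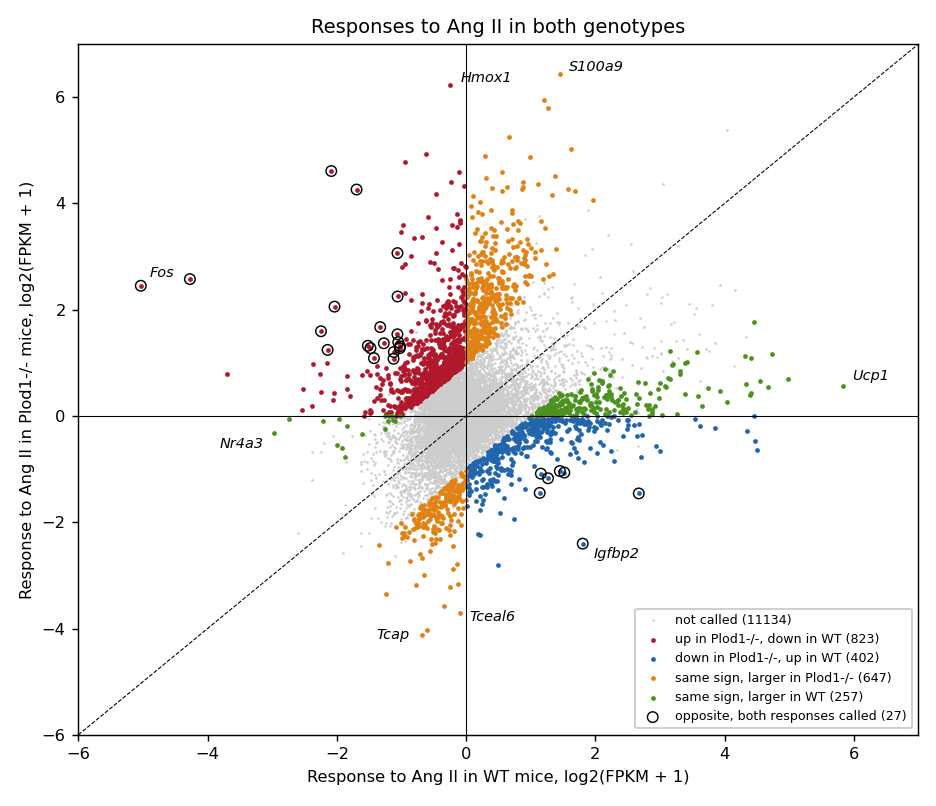
Each point is 1 of the 13263 tested genes, with its log2(FPKM + 1) response to Ang II in WT mice on the horizontal axis and in Plod1-/- mice on the vertical axis; colours mark the 4 sign classes, the dashed line marks equal responses and circles mark the 27 genes with opposite responses that were both called. The circled genes lie away from both axes, Fos at -5.03 in WT and 2.45 in Plod1-/- mice, whereas many other called genes of opposite sign lie next to an axis.

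Few genes had opposite responses that each passed both the adjusted p and the size threshold. By the adjusted p alone, for the difference and both responses, 629 genes qualified. Both responses were called for 27 of the 1225 genes of opposite sign (0.204% of all genes tested), 20 of them up in Plod1-/- and down in WT and 7 the reverse. For 381 the response was called in Plod1-/- mice only and for 237 in WT mice only. For 580 (47.3%) neither response was called by itself. No gene of the same-sign classes was in that position, and this follows from arithmetic. A difference between responses of the same sign cannot be larger than the larger response, whereas a difference between responses of opposite sign is the sum of their sizes. Wdr43, which encodes a ribosome biogenesis factor and holds a small RNA gene within it, is a case of the second kind. Its response was 0.62 ± 0.09 (SE) in Plod1-/- mice and -0.70 ± 0.09 in WT mice, neither above 1 in size, and the difference of 1.33 had a limma adjusted p of 6.75e-06.

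The classes also differed in how certain the sign of the smaller response was. In the class up in Plod1-/- and down in WT, the smaller of the 2 responses lay within 1 SE of 0 for 204 of 823 genes (24.8%). In the class down in Plod1-/- and up in WT this held for 161 of 402 (40%), in the class larger in Plod1-/- for 302 of 647 (46.7%), and in the class larger in WT for 183 of 257 (71.2%). Both responses had an adjusted p below 0.05, whatever their size, for 260 genes (31.6%) of the first class, 85 (21.1%) of the second, 64 (9.89%) of the third and 4 (1.56%) of the fourth. Where the smaller response is within its error of 0, its sign is not resolved, and the gene differs from a gene with a larger response in one genotype only by that sign. Hmox1, Timp1, Adam8, Col1a1 and Cdc20, all in the class up in Plod1-/- and down in WT, had WT responses within 1 SE of 0.

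Part of an interaction can lie in the saline groups, when the genotypes already differ without Ang II. In the class up in Plod1-/- and down in WT, the median genotype difference under saline (Plod1-/- minus WT) was -0.35. It made up a median 25.2% of the interaction, beside 26.2% over all genes tested and 20.9% over all called genes. In the class down in Plod1-/- and up in WT it was 0.40 and 26.9%. In the class larger in Plod1-/- it was -0.05 and 2.44% for the 445 genes that were higher under Ang II, and 0.28 and 21.7% for the 202 that were lower. In the class larger in WT it was 0.34 and 23.9%, and for the 17 of its genes that were lower under Ang II it was -0.75 and 57%. The smallest saline share was thus that of the genes with a larger rise in Plod1-/- mice, and the largest that of these 17 genes. The genotype difference under saline was itself called for 25, 17, 0 and 2 genes of the 4 classes, of 52 among all genes tested (0.392%). The saline values enter the interaction, so these figures describe where the difference lies and are no separate test.

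Ang II-treated Plod1-/- mice were the group farthest from the other 3 for 71.8% of the genes up in Plod1-/- and down in WT and 27.6% of the reverse class (43.3% of all genes tested), and Ang II-treated WT mice for 19% and 57.5% (29.4%). In the same-sign classes the sorting nearly fixes that group, at 97.1% and 93%. The median FPKM in saline-treated WT mice was 0.952 for genes that were higher in Plod1-/- mice by a larger response of the same sign, 21.7 for genes lower by one, and 8.53, 6.41 and 7.73 in the remaining 3 classes, against 5.33 over all genes tested. The first of these medians is below the filter minimum of 1, so most of those genes passed the filter through another group, and the low level follows in part from the filter and the sorting. With FPKM of 1 required in 10 samples, 455 of the 647 genes larger in Plod1-/- were tested.

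Promoters were a property that the sorting did not use. RefSeq promoters (GRCm38.p6), 250 bases before the start, were matched to 8594 of the 13263 tested genes (64.8%), each within 1000 bases of the annotated start. The observed to expected ratio of CpG had a median of 0.738 over all of these. It was 0.729 in the class up in Plod1-/- and down in WT (460 promoters), 0.635 in the class down in Plod1-/- and up in WT (254) and 0.671 in the class larger in WT (167). In the class larger in Plod1-/- (428 promoters) it was 0.404, and 0.362 for the 305 of its genes that were higher under Ang II. The GC box GGGCGG, read on both strands, was found in 60.9% of all promoters and in 67%, 59.4%, 42.8% and 55.1% of the classes in the order above. The TATA box TATAAA was found in 6.34% of all promoters, and in 12.2% of those up in Plod1-/- and down in WT, 7.87% of the reverse class, 10% of the class larger in Plod1-/- and 2.99% of the class larger in WT. The AP-1 motif TGANTCA was found in 4.13% of all promoters and in 7.17%, 5.12%, 5.84% and 2.99% of the 4 classes. Genes of a class are not independent of each other, so no test was made. The 4 promoters below show the range, 2 from genes of opposite responses and 2 from genes larger in Plod1-/-. CpG is in capitals, and each is written 5′ to 3′ on the strand of its gene.
Fos, AP-1 transcription factor, opposite responses, chr12:85473640-85473889, plus strand, 15 CpG, ratio 0.705: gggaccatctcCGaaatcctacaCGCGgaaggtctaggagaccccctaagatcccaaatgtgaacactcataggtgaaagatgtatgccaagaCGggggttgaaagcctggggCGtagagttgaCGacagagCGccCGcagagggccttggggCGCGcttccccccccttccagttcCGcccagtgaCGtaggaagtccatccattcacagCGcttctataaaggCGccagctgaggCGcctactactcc
Hspa5, endoplasmic reticulum chaperone, opposite responses, chr2:34771840-34772089, plus strand, 22 CpG, ratio 0.926: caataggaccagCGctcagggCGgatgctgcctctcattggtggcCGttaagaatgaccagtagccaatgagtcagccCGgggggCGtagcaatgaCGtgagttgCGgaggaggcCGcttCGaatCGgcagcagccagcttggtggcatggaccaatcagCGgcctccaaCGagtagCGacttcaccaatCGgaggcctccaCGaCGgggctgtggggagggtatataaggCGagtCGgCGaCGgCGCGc
S100a9, calgranulin of neutrophils, larger in Plod1-/-, chr3:90695722-90695971, minus strand, 2 CpG, ratio 0.111: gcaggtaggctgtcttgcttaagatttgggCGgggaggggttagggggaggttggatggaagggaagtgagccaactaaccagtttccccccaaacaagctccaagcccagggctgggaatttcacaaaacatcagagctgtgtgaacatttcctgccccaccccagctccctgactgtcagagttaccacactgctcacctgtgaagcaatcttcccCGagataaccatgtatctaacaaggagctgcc
Lmod1, leiomodin of smooth muscle, larger in Plod1-/-, chr1:135324563-135324812, plus strand, 6 CpG, ratio 0.34: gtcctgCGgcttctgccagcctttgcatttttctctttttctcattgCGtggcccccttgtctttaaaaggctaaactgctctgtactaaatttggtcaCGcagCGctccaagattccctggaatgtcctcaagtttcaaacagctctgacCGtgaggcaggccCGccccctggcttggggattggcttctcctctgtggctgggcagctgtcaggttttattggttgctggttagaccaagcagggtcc

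Immediate early genes were mostly of opposite sign. They are switched on within minutes of a stimulus without new protein synthesis, and many encode transcription factors. Of 26 tested, 20 (76.9%) had a called positive difference and none a negative one, 17 of them up in Plod1-/- and down in WT and 3 larger in WT. Among these 20, both responses were called for 7, the WT response alone for 10, the Plod1-/- response alone for 1 and neither for 2. Over the 26, the median response was 0.77 in Plod1-/- mice and -1.61 in WT mice, beside 0.06 and -0.12 over all genes tested. Their median genotype difference under saline was -0.79.

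Fos encodes the partner of Jun proteins in the AP-1 factor, and its promoter with 15 CpG is printed above. In WT mice its FPKM was 87.5, 206, 229.9, 235 and 358 under saline and 2.41, 4.64, 5.29, 6.92 and 8.94 under Ang II. The Plod1-/- values were 6.40, 17.9, 33.6, 123 and 226 under saline and 99.5, 194, 220.4, 378 and 401 under Ang II. Every Ang II-treated WT mouse lay below every saline-treated one, while the Plod1-/- groups overlapped because 2 saline-treated mice were above 100. Fos fell in WT mice (-5.03 ± 0.69, SE; limma adjusted p = 0.000309) and rose in Plod1-/- mice (2.45 ± 0.69; adjusted p = 0.00685), a difference of 7.48 ± 0.97 (adjusted p = 3.91e-05).

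Fosb, a second AP-1 subunit, had the same shape. Its FPKM was 16.7, 23, 39.5, 46.6 and 69.5 in saline-treated WT mice and 0.489, 0.549, 0.590, 1.10 and 1.76 in Ang II-treated WT mice. FPKM in Plod1-/- mice was 1.28, 2.04, 3.88, 11.8 and 19 under saline and 12.4, 29, 34, 65.4 and 68.7 under Ang II. The WT groups did not overlap and the Plod1-/- groups did, and saline-treated Plod1-/- mice were already lower than saline-treated WT mice, with a difference of -2.54 (limma adjusted p = 0.0286). The response was -4.27 in WT mice (adjusted p = 0.000287) and 2.58 in Plod1-/- mice (adjusted p = 0.000855), a difference of 6.85 ± 0.77 (adjusted p = 1.83e-05).

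Zfp36, which encodes tristetraprolin, a protein that shortens the life of AU-rich mRNAs, overlaps Gm44710 on the opposite strand, and the sources used here give no strand setting, so reads of overlapping genes cannot be told apart. Its FPKM was 78.2, 141, 193, 209.6 and 275 in saline-treated and 23.6, 33.2, 33.6, 46.3 and 53.8 in Ang II-treated WT mice. Plod1-/- mice had 41.2, 47.2, 57.3, 93.8 and 136 under saline and 105, 135, 143, 219 and 251 under Ang II. The WT groups were apart, and the lowest Ang II-treated Plod1-/- mice were within the range of the saline-treated ones. Zfp36 fell by 2.14 in WT mice on the log2 scale (limma adjusted p = 0.000548) and rose by 1.24 in Plod1-/- mice (adjusted p = 0.00783).

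Other early transcription factors with both responses called were Egr2 (-1.52 in WT, 1.32 in Plod1-/- mice), Junb (-2.25 and 1.59, overlapping Prdx2 on the other strand) and Fosl1 (-1.48 and 1.28, overlapping Ccdc85b). Junb and Egr2 were less steady than Fos and Fosb. In 20 fits that left out 1 mouse, Junb kept both calls in 13, Egr2 in 12 and Fosl1 in 19. Fos, Fosb, Zfp36, Ptgs2, Ccl2, Ccl7, Tubb6, Timp4 and the small nucleolar RNA gene Snora31 were the 9 of 27 genes that kept both calls in every one of those 20 fits. Of the MAP kinase phosphatase and Sprouty genes, which switch off the signal that induces early genes, 5 of 13 tested had a called positive difference and 1 a negative one (46.2%). Dusp1, overlapping Ergic1 on the other strand, was called in WT mice (-1.85 ± 0.33) and not in Plod1-/- mice (0.50 ± 0.33), and Dusp5, overlapping AC137853.2, was called in Plod1-/- mice (1.30 ± 0.24) and not in WT mice (-0.78 ± 0.24).

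Among the 10 early genes called in WT mice alone was Nr4a3. Nr4a3, an orphan nuclear receptor, had FPKM of 6.49, 12.2, 14, 28.1 and 28.8 in saline-treated WT mice and 0.750, 0.776, 0.960, 1.39 and 1.92 in Ang II-treated WT mice. Values in Plod1-/- mice were 2.15, 2.32, 2.62, 2.87 and 6.00 under saline and 1.16, 2.14, 2.22, 2.77 and 3.08 under Ang II. All 10 Plod1-/- mice lay below every saline-treated WT mouse, and the Plod1-/- groups overlapped. Nr4a3 fell in WT mice (-2.98 ± 0.31; limma adjusted p = 0.000161), and its response in Plod1-/- mice was -0.32 ± 0.31 (adjusted p = 0.428), a difference of 2.66 ± 0.45 (adjusted p = 0.000294). It is 1 of the 17 genes in the class larger in WT that were lower under Ang II. For 12 of these 17 (70.6%), saline-treated WT mice were the group farthest from the others.

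Btg2, an antiproliferative cofactor, and Nr4a1 were in that class too. Btg2 FPKM was 58.1, 101, 128, 172 and 254 in saline-treated and 19.2, 22.2, 27.3, 29.7 and 39.1 in Ang II-treated WT mice. Levels in Plod1-/- mice were 30.2, 44.9, 67, 85.5 and 154 under saline and 42.5, 45, 51.5, 75 and 118 under Ang II. The WT groups did not overlap and the Plod1-/- groups did. Btg2 fell in WT mice (-2.21 ± 0.41; limma adjusted p = 0.000785), with a response of -0.09 ± 0.41 in Plod1-/- mice and a difference of 2.12 ± 0.57 (adjusted p = 0.00824).

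**Figure D2:**
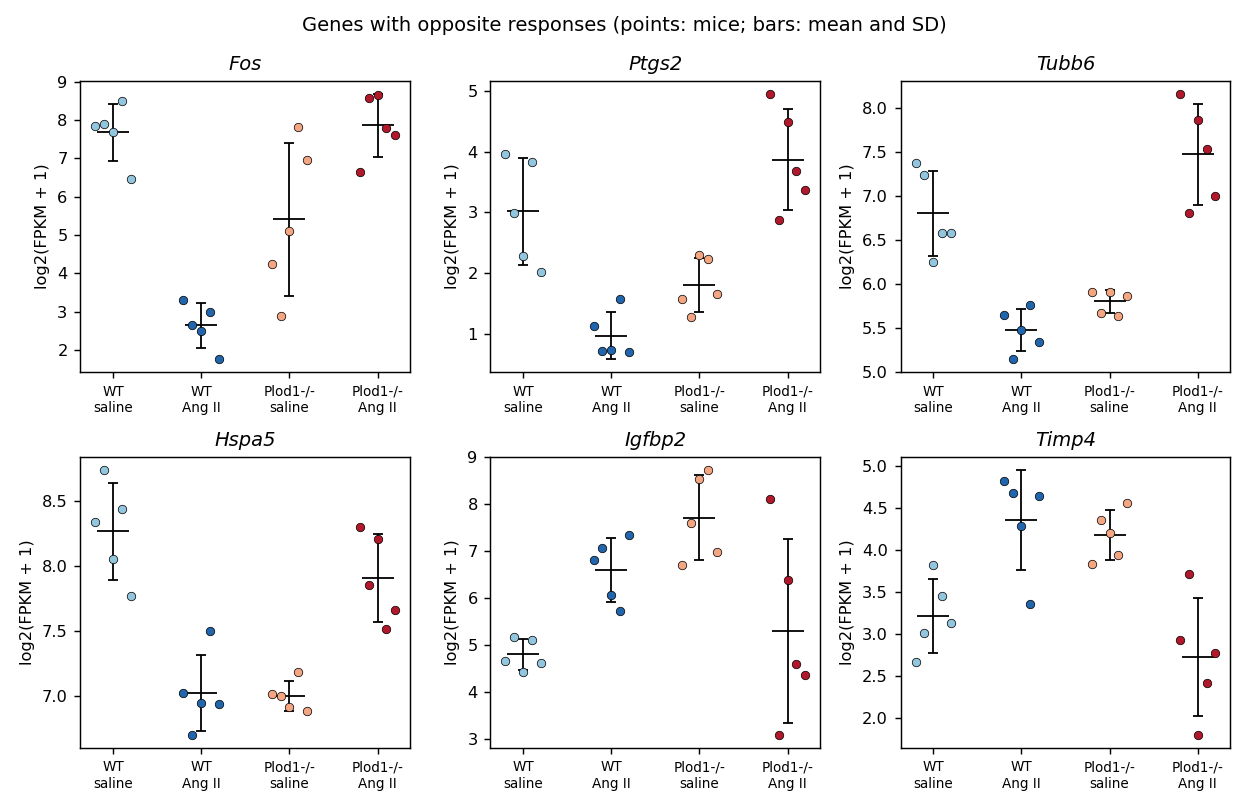
6 genes with opposite responses, with log2(FPKM + 1) on the vertical axis of each panel, 1 point for each mouse and bars for the mean and SD of 5 mice in each of the 4 groups. In Fos, Ptgs2, Tubb6 and Hspa5, the mean is lower under Ang II in WT mice and higher under Ang II in Plod1-/- mice, and in Igfbp2 and Timp4 the means show the reverse.

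Ptgs2 and Tubb6 were among the genes whose groups did not overlap in either genotype. Over all genes tested, 111 (0.837%) were higher in every Ang II-treated than in every saline-treated Plod1-/- mouse and lower in every Ang II-treated than in every saline-treated WT mouse, and 31 (0.234%) had the reverse pattern. Of the 27 genes with both responses called, 5 had the first pattern (Ptgs2, Tubb6, Medag, Bdkrb1 and Kdelr3) and 1 the second (Macrod1). Ptgs2 encodes cyclooxygenase 2, which makes the precursor of prostaglandins. Its FPKM was 3.08, 3.86, 6.95, 13.2 and 14.5 in saline-treated WT mice and 0.627, 0.651, 0.679, 1.21 and 1.99 in Ang II-treated WT mice. The Plod1-/- mice had 1.44, 1.98, 2.16, 3.70 and 3.93 under saline and 6.35, 9.28, 11.8, 21.4 and 29.7 under Ang II. Its responses of -2.04 ± 0.39 in WT mice and 2.06 ± 0.39 in Plod1-/- mice were nearly equal in size, and the difference was 4.09 (limma adjusted p = 6.11e-05).

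Tubb6, a beta tubulin, was also apart in both genotypes. Its FPKM was 74.7, 94.5, 94.6, 149.5 and 165 in saline-treated and 34.4, 39.5, 43.4, 49.1 and 53.1 in Ang II-treated WT mice. The Plod1-/- values were 48.7, 49.9, 57.2, 59.1 and 59.1 under saline and 110.4, 127, 184, 232 and 284 under Ang II. Saline-treated Plod1-/- mice lay below every saline-treated WT mouse. The response was -1.33 ± 0.24 in WT mice (limma adjusted p = 0.000715) and 1.67 ± 0.24 in Plod1-/- mice (adjusted p = 2.24e-05), a difference of 3.0 (adjusted p = 1.83e-05). Emp1, a membrane protein of the PMP22 family, was similar, with FPKM of 16.9, 22.6, 24.6, 32.9 and 33.5 and 8.34, 9.32, 10.02, 14.6 and 18.4 in WT mice under saline and Ang II. FPKM in Plod1-/- mice was 10.4, 11.4, 11.6, 12.9 and 14.2 under saline and 42.4, 53.1, 58.2, 72.3 and 89.3 under Ang II. Only the WT groups of Emp1 overlapped, and its difference was 3.31 ± 0.31 (limma adjusted p = 6.75e-06).

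Chemokines, which draw leukocytes into tissue, were divided between the classes. Of 24 tested, 18 were called (75%; 17 positive, 1 negative), 11 in the class up in Plod1-/- and down in WT and 7 in the class larger in Plod1-/-. Their median response was 2.86 in Plod1-/- mice and -0.03 in WT mice. The filter admits genes through the group where they are high, so the called share is no support. Without a filter, 39 chemokines were tested, 17 had a called positive and 1 a called negative difference. The median difference was 0.51 over the 39 and 2.17 over the 24. Ccl2, the main monocyte chemokine, overlaps Gm17268 on the opposite strand. Its FPKM was 2.14, 3.31, 5.85, 12.8 and 17.1 in saline-treated WT mice and 0.506, 0.623, 1.10, 1.25 and 4.63 in Ang II-treated WT mice. Plod1-/- mice had 0.863, 1.10, 1.63, 1.94 and 4.92 under saline and 22.1, 43.9, 52.5, 89.1 and 92 under Ang II. The Plod1-/- groups were far apart, and the WT groups overlapped through 1 Ang II-treated mouse. Ccl2 fell in WT mice (-1.70 ± 0.49; limma adjusted p = 0.0116) and rose in Plod1-/- mice (4.26 ± 0.49; adjusted p = 3.29e-06). Ccl7 (-2.09 in WT and 4.61 in Plod1-/- mice) and Cxcl1 (-1.06 and 3.06) also had both responses called. Cxcl5, by contrast, had a response of 0.12 ± 0.21 in WT mice and 3.09 ± 0.21 in Plod1-/- mice and belonged to the class larger in Plod1-/-. It passed the filter in 26 of 33 settings, and its call was lost with a pseudocount of 10. The TATA box was found in 43.8% of the 16 chemokine promoters and 23.5% of the 17 promoters of immediate early genes.

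Of 9 cytokines of inflammation that passed the filter, 7 had a called positive difference (77.8%). That share too is set in part by the filter. Without it 10 of 15 were called, and 2 of 4 with FPKM of 1 required in 10 samples. Il6, an inducer of the acute phase, had FPKM of 0.0607, 0.113, 0.183, 0.269 and 0.414 in saline-treated and 0, 0.0167, 0.0287, 0.0438 and 0.121 in Ang II-treated WT mice. Values in Plod1-/- mice were 0.0277, 0.0289, 0.0441, 0.267 and 0.346 under saline and 3.44, 6.27, 7.64, 8.20 and 10.3 under Ang II. All 15 mice of the other groups were below 0.5. The responses were -0.21 ± 0.18 in WT mice, not called, and 2.78 ± 0.18 in Plod1-/- mice, and the difference of 2.99 (limma adjusted p = 2.39e-06) shared the smallest adjusted p of all genes with that of Sphkap. Il6 passed the filter only through the 5 Ang II-treated Plod1-/- mice, the group where it is high. On log2(FPKM + 1) a gene at such low FPKM in 3 groups has its WT change compressed, and with a pseudocount of 10 the difference of Il6 was 0.77 and no longer called. Il1b, which overlaps Il1bos, had the same sign in both genotypes (0.41 in WT and 4.29 in Plod1-/- mice).

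Genes of the endoplasmic reticulum folding machinery also differed between the genotypes under saline. These proteins fold secreted proteins and are induced when unfolded chains build up. Of 18 tested, 12 had a called positive difference (66.7%) and all 12 were up in Plod1-/- and down in WT. Among the 12, the response was called in WT mice only for 1, in Plod1-/- mice only for 4 and in neither for 7. Over the 18, the median genotype difference under saline was -0.61, and the saline share was a median 47.1% of the interaction among the 12. That share was larger in 3 lists with few called genes. It was 84.1% for the 2 heat shock genes, 79.4% for the 2 B cell markers and 53.6% for the 1 fibroblast marker called. Hspa5 encodes BiP, the chief chaperone of this compartment, and its promoter had the highest CpG ratio of the 4 printed. Its FPKM was 218, 264, 322, 347 and 427 in saline-treated WT mice and 103, 122, 122, 129 and 179.9 in Ang II-treated WT mice. Levels in Plod1-/- mice were 117, 119, 127, 128 and 144 under saline and 182, 202, 230.4, 295 and 314 under Ang II. Neither genotype's groups overlapped, and saline-treated Plod1-/- mice were at the level of Ang II-treated WT mice, -1.27 from saline-treated WT mice (limma adjusted p = 0.00181). The response was -1.25 ± 0.19 in WT mice and 0.91 ± 0.19 in Plod1-/- mice, the latter below the size threshold, with a difference of 2.16 (adjusted p = 2.61e-05). Sdf2l1, a BiP cofactor, had a response of 2.14 ± 0.26 in Plod1-/- mice and -0.03 ± 0.26 in WT mice.

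Of 26 fibrillar collagens and collagen processing genes tested, 19 had a called positive difference (73.1%), 18 of them up in Plod1-/- and down in WT, and the saline share among the 19 was a median 8.48%. Both responses were called for 1 of the 19, the Plod1-/- response alone for 9 and neither for 9. Serpinh1, the collagen chaperone HSP47, had both responses called and differed under saline too. Its FPKM was 453, 533, 590.4, 682 and 809.8 in saline-treated and 232, 242, 277, 344 and 421 in Ang II-treated WT mice. The Plod1-/- mice had 246, 266, 279, 288 and 338 under saline and 321, 602, 881, 906 and 1089 under Ang II. All saline-treated Plod1-/- mice were below every saline-treated WT mouse (difference -1.09). The WT groups did not overlap, and the lowest Ang II-treated Plod1-/- mouse was just inside the range of the saline-treated ones. Serpinh1 fell in WT mice (-1.02 ± 0.26; limma adjusted p = 0.0059) and rose in Plod1-/- mice (1.31 ± 0.26; adjusted p = 0.000526).

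Col1a1, the main chain of type I collagen, was opposite by sign only. Its FPKM was 85.1, 92.2, 112, 127 and 145 in saline-treated WT mice and 58.8, 64, 78.1, 79.1 and 187 in Ang II-treated WT mice. The Plod1-/- values were 59.9, 72.6, 105, 119 and 128 under saline and 413, 450, 790.1, 1383 and 3049 under Ang II. All 5 Ang II-treated Plod1-/- mice were above all 15 others, and 1 Ang II-treated WT mouse, mouse 1, was above the saline-treated WT range. The responses were -0.38 ± 0.43 in WT mice (limma adjusted p = 0.502) and 3.27 ± 0.43 in Plod1-/- mice (adjusted p = 1.11e-05). Lox, a lysyl oxidase that overlaps AC161119.1, had responses of -0.99 ± 0.37 and 2.81 ± 0.37, with an adjusted p of 0.0391 in WT mice at a size just below 1.

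Of 19 matricellular and adhesive matrix genes, 11 had a called positive difference (57.9%), all up in Plod1-/- and down in WT. Among the 11, the response was called in Plod1-/- mice only for 8, in WT mice only for 1 and in neither for 2. Thbs1, thrombospondin 1, overlaps Gm29233. Its FPKM was 5.28, 7.84, 11.9, 18.1 and 19.3 in saline-treated and 3.92, 4.14, 5.51, 6.30 and 13.1 in Ang II-treated WT mice. FPKM in Plod1-/- mice was 4.29, 5.58, 16, 21.6 and 24.1 under saline and 63.2, 130, 144, 156 and 188 under Ang II. The WT groups overlapped, and Ang II-treated Plod1-/- mice were all above 60. The response was 3.35 ± 0.45 in Plod1-/- mice (limma adjusted p = 1.17e-05) and -0.81 ± 0.45 in WT mice (adjusted p = 0.154), so the negative WT estimate did not pass the test, and the difference was 4.15 ± 0.63 (adjusted p = 0.000146).

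Hmox1, heme oxygenase 1, had the largest difference of the genes with no response in WT mice past the threshold. Its FPKM was 13, 17.9, 22.4, 26.8 and 30.4 in saline-treated and 11, 11.7, 12.4, 13.6 and 73.9 in Ang II-treated WT mice. Plod1-/- mice had 7.38, 7.87, 10.3, 11.3 and 15.1 under saline and 218, 602, 1385, 1391 and 1516 under Ang II. The highest Ang II-treated WT value came from mouse 1, whose macrophage marker sum was also the highest of its group. The response was 6.22 ± 0.51 in Plod1-/- mice and -0.25 ± 0.51 in WT mice, a difference of 6.47 (limma adjusted p = 1.73e-05). Of the 14 heme and iron genes, 5 were called (35.7%), all positive, and 4 of these were larger in Plod1-/-, such as the iron transporter Slc11a1 (2.93 in Plod1-/- and 0.40 in WT mice). Among the 6 red blood cell genes tested, 5 were called, 4 of them larger in Plod1-/-. The summed FPKM of all 9 measured red blood cell genes was 772 to 9750 in Ang II-treated Plod1-/- mice and 67.3 to 1540 in the other 15 mice. The part of blood in these differences was not tested.

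Most ribosome genes were not called with the size threshold. Of 25 ribosome biogenesis genes, 11 had a called positive difference (44%), all up in Plod1-/- and down in WT, led by Myc (2.85 in Plod1-/- and -0.95 in WT mice), a transcription factor that drives this program. Among the 11, the response in Plod1-/- mice passed the size threshold for Myc alone, and neither response was called for 10. By the adjusted p alone, 21 of the 25 were called, all up in Plod1-/- and down in WT. Of 86 cytoplasmic ribosomal protein genes, 16 were called (18.6%), close to the 16.1% of all genes, and 7 after rescaling without mitochondrial genes. Ribosomal protein genes have near-identical copies elsewhere in the genome, so their FPKM is uncertain. Of 16 serine synthesis and one-carbon genes, 5 were called (31.2%), with Psat1, which overlaps Gm3329, at 2.17 in Plod1-/- and -0.46 in WT mice.

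The 7 genes that fell in Plod1-/- mice and rose in WT mice, with both responses called, included Igfbp2, Fabp3, Timp4, Macrod1, Slc22a3 (which overlaps Plg and AC132106.1) and Ldhb. Igfbp2 encodes a binding protein of insulin-like growth factors. Its FPKM was 20.7, 23.5, 24.2, 33.7 and 35.2 in saline-treated WT mice and 52.3, 65.9, 111, 133 and 162 in Ang II-treated WT mice. Values in Plod1-/- mice were 104, 125, 192, 372 and 423 under saline and 7.56, 19.5, 23.1, 82.9 and 275 under Ang II. Every saline-treated Plod1-/- mouse was above every saline-treated WT mouse (difference 2.91, limma adjusted p = 0.0377), and 1 Ang II-treated Plod1-/- mouse, at 275, was within the saline range. The response was 1.80 ± 0.66 in WT mice (adjusted p = 0.0382) and -2.40 ± 0.66 in Plod1-/- mice (adjusted p = 0.00633), and both calls were kept in 12 of 20 fits that left out 1 mouse.

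Timp4, an inhibitor of metalloproteinases, overlaps Gm17482 and Syn2. Its FPKM was 5.38, 7.04, 7.74, 9.95 and 13.1 in saline-treated and 9.21, 18.5, 23.9, 24.5 and 27.2 in Ang II-treated WT mice. Levels in Plod1-/- mice were 13.2, 14.3, 17.4, 19.5 and 22.6 under saline and 2.50, 4.36, 5.86, 6.60 and 12.1 under Ang II. The Plod1-/- groups did not overlap, and the WT groups did through Ang II-treated mouse 4, at 9.21. The response was 1.14 ± 0.31 in WT mice (limma adjusted p = 0.00839) and -1.45 ± 0.31 in Plod1-/- mice (adjusted p = 0.000954). Of 34 metallopeptidases and TIMPs, 12 had a called positive and 3 a called negative difference (44.1%), 8 up in Plod1-/- and down in WT, 6 larger in Plod1-/-, among them Mmp9 (3.50 and 0.43), and Timp4 alone in the class down in Plod1-/- and up in WT.

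Macrod1, a mono-ADP-ribosylhydrolase of mitochondria, overlaps Flrt1 and AC109619.1. Its FPKM was 23.5, 28.2, 29, 32.6 and 33 in saline-treated and 36.1, 37.8, 79.1, 101 and 114 in Ang II-treated WT mice. The Plod1-/- mice had 35.2, 41.4, 41.5, 43.5 and 55.5 under saline and 14, 17.4, 18, 19.4 and 34.4 under Ang II. Neither genotype's groups overlapped. Its responses of 1.16 ± 0.28 and -1.09 ± 0.28 gave a difference of -2.24 (limma adjusted p = 0.000455).

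Fabp3, a fatty acid binding protein of muscle and brown fat, overlaps Zcchc17 and Gm10570. Its FPKM was 29.6, 30.6, 33, 48.1 and 48.3 in saline-treated and 74.8, 154, 321, 437 and 507 in Ang II-treated WT mice. The Plod1-/- values were 17.8, 23.4, 50.8, 94.8 and 198 under saline and 11, 17.7, 18.1, 24 and 26.1 under Ang II. The lowest Ang II-treated WT value was that of mouse 4, which also had the lowest adipocyte markers, and the WT groups did not overlap. Its difference was -4.13 ± 0.78 (limma adjusted p = 0.000782). Sphkap, an anchoring protein of protein kinase A that overlaps Gm6374, was low in all groups. Its FPKM was 0.558, 0.589, 0.948, 0.955 and 1.09 in saline-treated and 1.31, 1.77, 1.86, 2.02 and 3.64 in Ang II-treated WT mice, and 2.65, 3.48, 4.40, 4.44 and 4.76 and 0.157, 0.173, 0.269, 0.344 and 0.421 in Plod1-/- mice. Neither genotype's groups overlapped, and saline-treated Plod1-/- mice were the highest (1.43 over saline-treated WT mice, limma adjusted p = 0.000243). Sphkap fell in Plod1-/- mice (-1.94 ± 0.16), and its WT response of 0.74 ± 0.16 was below the size threshold.

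**Figure D3:**
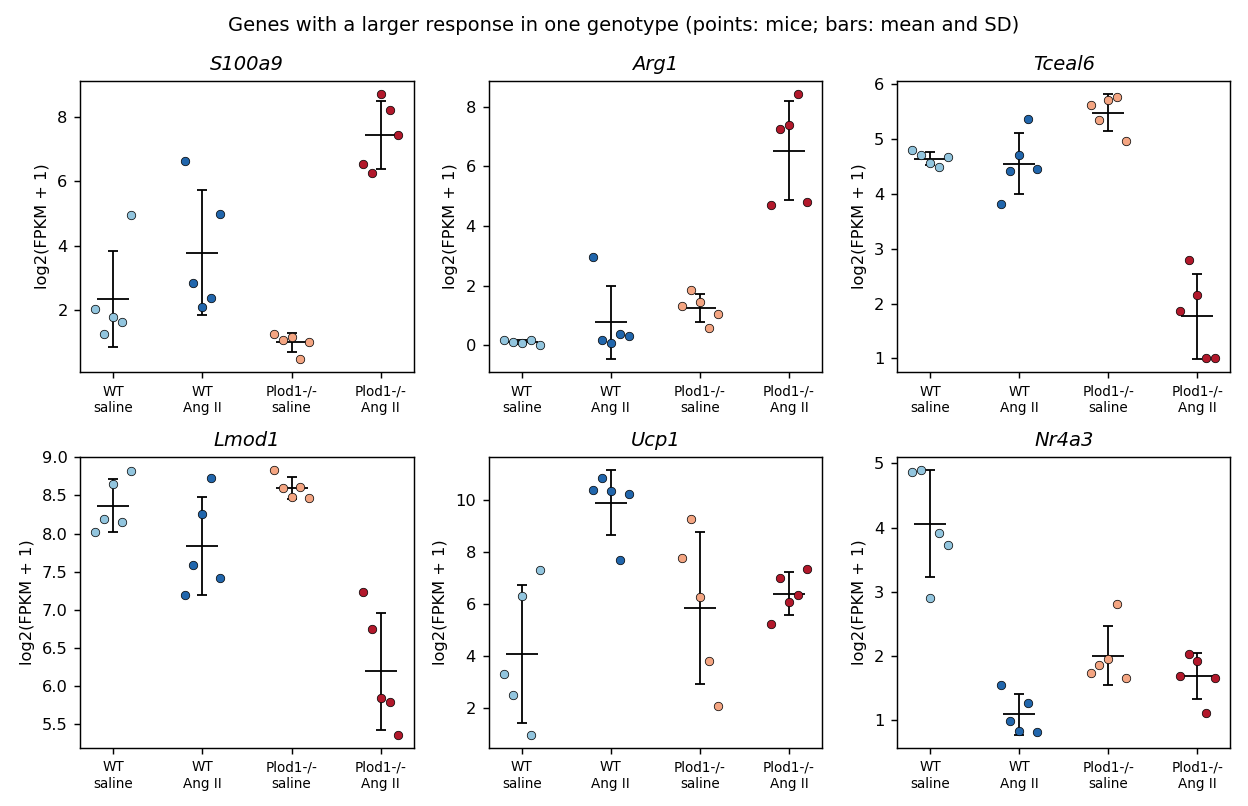
6 genes with a larger response of the same sign in one genotype, with log2(FPKM + 1) on the vertical axis of each panel, 1 point for each mouse and bars for the mean and SD of 5 mice in each group. In Arg1 and Tceal6 the Ang II-treated Plod1-/- mice lie apart from all others, in S100a9 and Lmod1 they overlap Ang II-treated WT mouse 1, in Ucp1 the mean is highest in Ang II-treated WT mice with mouse 4 below 2 saline-treated Plod1-/- mice, and in Nr4a3 all saline-treated WT mice are highest.

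Leukocyte markers were called mostly in the class larger in Plod1-/-. Of 18 macrophage markers, 16 were called in it and 1 more up in Plod1-/- and down in WT (94.4% called), with a median response of 3.13 in Plod1-/- and 0.69 in WT mice. Of 15 neutrophil markers in the tables, 8 passed the filter, and these were all called, larger in Plod1-/-. The filter admits genes through the group where they are high, so that share is no support. Without a filter 7 of the 15 were called, and 2 of 2 with FPKM of 1 required in 10 samples. S100a9 encodes a calgranulin abundant in neutrophils, and its promoter held only 2 CpG. Its FPKM was 1.42, 2.07, 2.47, 3.12 and 29.9 in saline-treated WT mice and 3.31, 4.21, 6.12, 30.5 and 98.6 in Ang II-treated WT mice. FPKM in Plod1-/- mice was 0.403, 1.02, 1.10, 1.24 and 1.41 under saline and 75.8, 91.9, 172, 297 and 416 under Ang II. Saline-treated WT mouse 5 and Ang II-treated WT mouse 1 stood above their groups, and the Plod1-/- groups did not overlap. S100a9 rose in Plod1-/- mice (6.43 ± 0.78; limma adjusted p = 5.2e-06), with a WT response of 1.45 ± 0.78 (adjusted p = 0.142).

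Arg1, arginase 1 of alternatively activated macrophages, had FPKM of 0, 0.0496, 0.0829, 0.134 and 0.146 in saline-treated and 0.0517, 0.127, 0.236, 0.297 and 6.78 in Ang II-treated WT mice. Plod1-/- mice had 0.503, 1.09, 1.51, 1.76 and 2.63 under saline and 25.3, 27.1, 150.1, 167 and 340.2 under Ang II. Again 1 Ang II-treated WT mouse, mouse 1, stood apart from the other 4. The response was 5.25 ± 0.62 in Plod1-/- mice (limma adjusted p = 3.77e-06) and 0.66 ± 0.62 in WT mice (adjusted p = 0.398). Clec4n, the lectin receptor dectin 2 of myeloid cells, had FPKM of 0.607, 0.857, 1.38, 1.69 and 2.83 and 0.908, 1.59, 1.87, 2.08 and 3.71 in WT mice under saline and Ang II. Values in Plod1-/- mice were 0.469, 0.543, 0.779, 1.11 and 1.15 and 17.3, 37.1, 57.1, 89.9 and 112. No WT mouse was above 4, and its difference was 4.59 ± 0.53 (limma adjusted p = 2.04e-05). The summed macrophage markers were 1230 to 6580 in Ang II-treated Plod1-/- mice and 137 to 2460 in the other groups, and the part of cell number in these differences was not tested.

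Of 27 cell cycle genes in the tables, 16 passed the filter, and all 16 had a called positive difference, 10 up in Plod1-/- and down in WT and 6 larger in Plod1-/-. That share too is set in part by the filter, since 7 genes remained, all called, with FPKM of 1 required in 10 samples, and 23 of 27 were called without a filter. Among the 16, the response was called in Plod1-/- mice only for 14 and in neither genotype for 2. Cdc20, an activator of the anaphase-promoting complex that overlaps Elovl1, had FPKM of 2.41, 2.41, 2.49, 2.82 and 2.96 in saline-treated and 1.88, 1.95, 2.08, 2.61 and 4.22 in Ang II-treated WT mice. Levels in Plod1-/- mice were 1.91, 2.44, 3.44, 3.55 and 3.61 under saline and 9.90, 21.3, 28, 30.5 and 43.4 under Ang II. The 5 Ang II-treated Plod1-/- mice were above all 15 others. The response was 2.67 ± 0.26 in Plod1-/- mice (limma adjusted p = 8.27e-07) and -0.06 ± 0.26 in WT mice (adjusted p = 0.863).

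Contractile smooth muscle genes had negative median responses in both genotypes, with the response called for 13 of 16 in Plod1-/- mice and for 3 in WT mice. Of the 16, 6 had a called negative difference (37.5%), all 6 larger in Plod1-/-, and the median response was -1.73 in Plod1-/- and -0.86 in WT mice. Lmod1, which nucleates actin filaments in smooth muscle, overlaps Gm22796. Its FPKM was 259, 282, 292, 402 and 450.5 in saline-treated WT mice and 146, 169, 190.4, 306 and 425 in Ang II-treated WT mice. The Plod1-/- mice had 353, 357, 385, 389.9 and 456 under saline and 40.03, 54, 56.2, 106 and 149 under Ang II. The WT groups overlapped and the Plod1-/- groups did not. Lmod1 fell in Plod1-/- mice (-2.41 ± 0.32; limma adjusted p = 1.06e-05), with a WT response of -0.53 ± 0.32 (adjusted p = 0.188). Without both libraries that held Xist RNA, or with weights per mouse, 9 of the 16 were called, all larger in Plod1-/-. The count was 2 without a filter on low values, 4 with the replicate number as a block and 4 on the square root scale. With an adipocyte marker covariate it was 8, of which 4 were down in Plod1-/- and up in WT.

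The largest negative difference of that class among protein-coding genes was that of Tceal6, a member of the TFIIS-like elongation factor family. Its FPKM was 21.6, 22.5, 24.5, 25.1 and 26.7 in saline-treated and 13, 20.3, 21, 25.2 and 40.05 in Ang II-treated WT mice. The Plod1-/- values were 30.04, 39.8, 48.1, 51.3 and 53.6 under saline and 0.999, 1.02, 2.62, 3.45 and 5.96 under Ang II. Every Ang II-treated Plod1-/- mouse was below 6 and all other mice above 12. Tceal6 fell in Plod1-/- mice (-3.71 ± 0.30; limma adjusted p = 1.57e-07), with a WT response of -0.09 ± 0.30.

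Dbp, a clock-controlled transcription factor that overlaps Sphk2, and Tcap, a titin cap protein of muscle, followed the same pattern. Dbp FPKM was 30.1, 34.1, 40.5, 56.1 and 59.4 and 17.8, 38.7, 46.7, 52.4 and 53.3 in WT mice under saline and Ang II, and 42.8, 71, 79.2, 98.3 and 99.6 and 3.97, 6.82, 7.37, 9.15 and 12.3 in Plod1-/- mice. Tcap FPKM was 184, 309.9, 321, 414 and 430.5 and 73.6, 205, 245, 294 and 358 in WT mice, and 330.2, 407, 457, 648 and 658 and 7.61, 24.1, 29.4, 40.6 and 84.4 in Plod1-/- mice. For both genes all 5 Ang II-treated Plod1-/- mice were below every saline-treated one and the WT groups overlapped. The difference was -3.04 ± 0.44 for Dbp (limma adjusted p = 9.36e-05) and -3.41 ± 0.67 for Tcap (adjusted p = 0.00104).

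Brown adipocytes burn fatty acids in mitochondria uncoupled by Ucp1 to make heat. Of 13 brown adipocyte markers tested, 10 were called (76.9%; 9 negative, 1 positive), 7 of them larger in WT. Without a filter on low values, 15 were tested and 4 were called, all negative. Ucp1, Cox8b, Cidea and Elovl3 lost their call in that setting and with the adipocyte covariate. Ucp1 FPKM was 0.955, 4.68, 8.77, 79.3 and 159.9 in saline-treated WT mice and 208, 1201, 1317, 1356 and 1879 in Ang II-treated WT mice. FPKM in Plod1-/- mice was 3.18, 12.9, 75.4, 219.8 and 621 under saline and 36.5, 66.5, 80.2, 126 and 164 under Ang II. The lowest Ang II-treated WT value was that of mouse 4, still above all saline-treated WT mice, and the Plod1-/- values were spread widely under saline. Ucp1 rose in WT mice (5.83 ± 1.23; limma adjusted p = 0.00168), with a response of 0.57 ± 1.23 in Plod1-/- mice and a difference of -5.27 ± 1.74 (adjusted p = 0.0233). Without Ang II-treated WT mouse 4 the class larger in WT grew from 257 to 409 genes.

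Of 18 fatty acid oxidation genes tested, 16 had a called negative difference (88.9%), 14 larger in WT and 2 down in Plod1-/- and up in WT, with a median response of 2.33 in WT and 0.25 in Plod1-/- mice. Hadhb, a subunit of the mitochondrial trifunctional protein, had FPKM of 10.5, 11.1, 12.7, 24.8 and 25.9 in saline-treated and 42.2, 98.3, 173, 182 and 206 in Ang II-treated WT mice. Plod1-/- mice had 12, 12.3, 18.4, 34.4 and 72.1 under saline and 14.5, 15.6, 22.2, 36.1 and 44.3 under Ang II. The WT groups did not overlap and the Plod1-/- groups did. Hadhb rose in WT mice (2.88 ± 0.49; limma adjusted p = 0.000573), with a response of 0.04 ± 0.49 in Plod1-/- mice. Of 20 fatty acid synthesis genes, 15 had a called negative difference (75%), 9 larger in WT and 6 down in Plod1-/- and up in WT, led by Fasn (4.51 in WT and -0.64 in Plod1-/- mice).

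Respiratory chain genes had differences of the same direction. Of 81 nuclear genes of the chain, 58 had a called negative difference (71.6%), 41 larger in WT and 17 down in Plod1-/- and up in WT, and none a positive one. The median response was 1.28 in WT and 0.10 in Plod1-/- mice. After quantile normalization 58 were called again, but 29 in each of these classes, so the division between them rested on Plod1-/- estimates around 0. Cox7a1, for example, had a Plod1-/- response of -0.00047 ± 0.89 and a WT response of 4.45 ± 0.89. Of the 13 protein genes of the mitochondrial genome, 7 had a called negative difference (53.8%), and mitochondrial genes made up 14.6 to 29.1% of the FPKM sum in Ang II-treated WT mice, 8.37 to 14.6% in saline-treated WT mice, and 9.23 to 21.1% in the Plod1-/- groups. The count of 7 was 1 without a filter, and 4 with the replicate block, on the square root scale or after quantile normalization. It was 10 with weights per mouse and 0 with the adipocyte covariate. The call of mt-Co2 was lost in 17 of 32 settings.

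**Figure D4:**
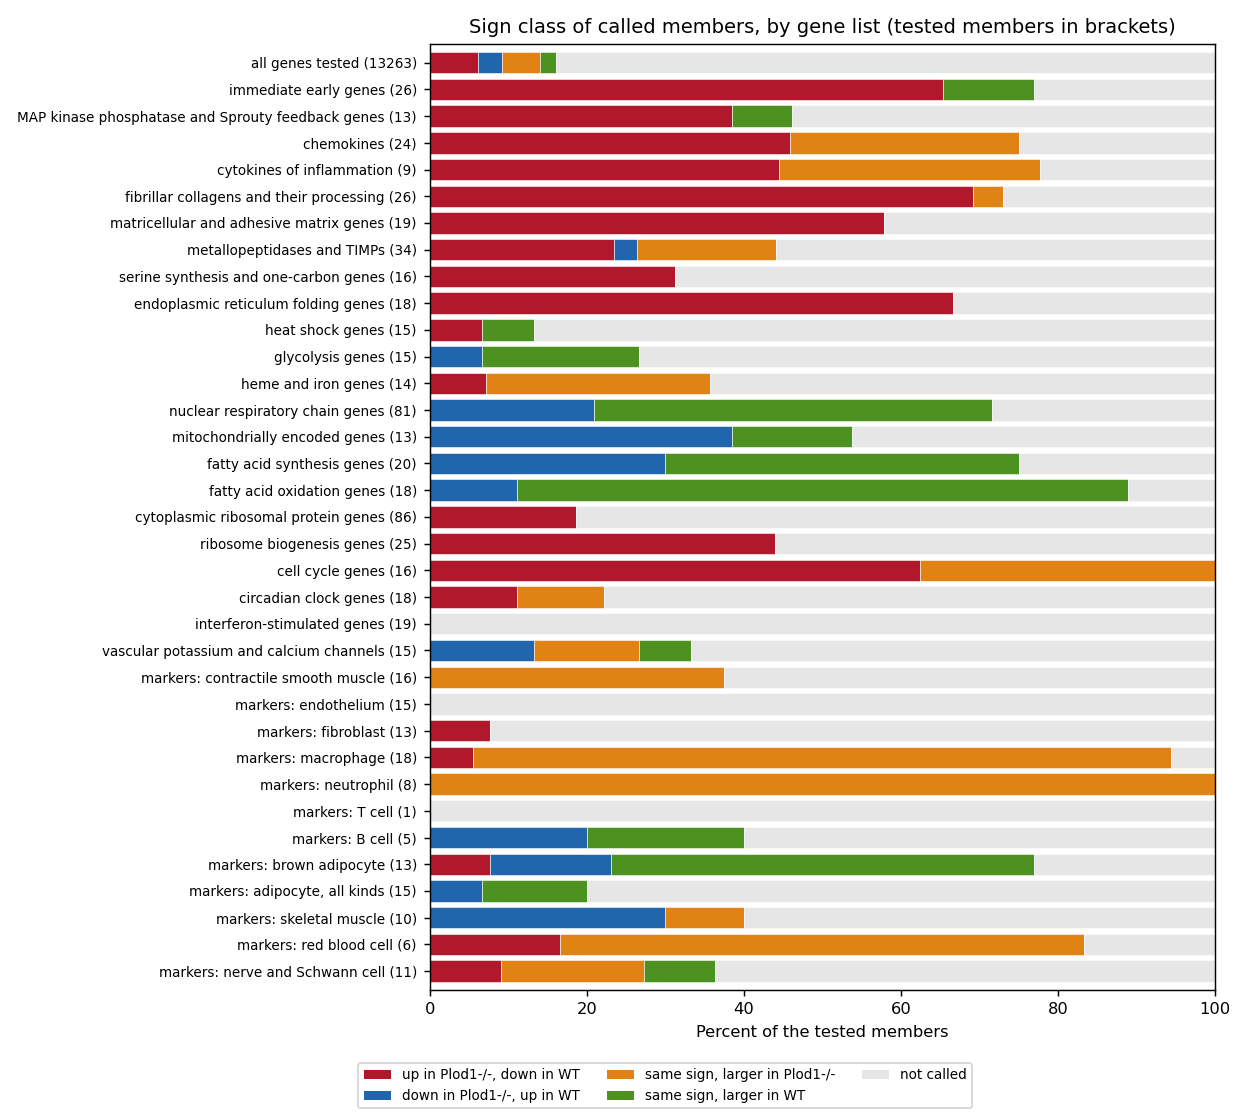
Bars give, for each gene list, the percent of tested members (their number in brackets) called in each of the 4 sign classes, with the rest not called in grey; the top bar is all genes tested, 16.1% called. Called immediate early, collagen, folding and ribosome genes are mainly up in Plod1-/- and down in WT (17 of 20, 18 of 19, 12 of 12, 11 of 11 and 16 of 16), though most ribosome genes are grey. Called fatty acid oxidation and nuclear respiratory chain genes are mainly larger in WT (14 of 16 and 41 of 58). Of the 7 called mitochondrially encoded genes 2 are. The response was called in WT mice only for all 7 and for 56 of the 58, so these divisions rest on Plod1-/- signs that are not resolved. Among the called collagen, folding, ribosome biogenesis and ribosomal protein genes, both responses were called for 1, 0, 0 and 0, and neither for 9, 7, 10 and 15. Their bars thus count signs of estimates and not called falls in WT mice.

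Adipocyte markers moved with treatment in WT mice. The mean log2(FPKM + 1) of 28 adipocyte marker genes was 2.48 to 4.39 in saline-treated and 4.99 to 6.98 in Ang II-treated WT mice, which did not overlap, and 3.10 to 5.66 and 3.83 to 6.16 in Plod1-/- mice, which did. With this mean as a covariate, an alternative chosen after the data were seen, 1505 genes were called. The 28 genes include Ucp1 and Cidea of the class larger in WT, and Cox7a1 and Cox8b of the respiratory chain list. Because the mean holds tested genes and separates the WT groups, losses of WT responses and in the class larger in WT were partly set in advance. Of the original classes, 482 of 823, 157 of 402 and 567 of 647 genes were still called, and 6 of 257 of the class larger in WT. Of the 81 respiratory chain genes none was called in that fit, and of the 18 fatty acid oxidation genes 1 was. The response in WT mice was then called for 0 genes by limma, with 971 at an unadjusted p below 0.05, and its median SE rose from 0.16 to 0.24. The 27 genes with both responses called all kept a called difference, and none kept a called WT response. Fos had a difference of 5.98 in that fit (limma adjusted p = 0.000875), with a WT response of -2.95 ± 0.94 and a Plod1-/- response of 3.03 ± 0.62. In Ptgs2 the WT response was -0.24 ± 0.36 and in Macrod1 0.26 ± 0.37. Other genes kept more of it, such as Ccl7 at -1.55 ± 0.72 (-2.09 without the covariate), and Igfbp2 was at 3.4 ± 0.98 (1.80 without the covariate). Of the 26 immediate early genes, 13 were called in that fit, 12 of them up in Plod1-/- and down in WT, and of the 18 folding genes 10 were called.

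**Figure D5:**
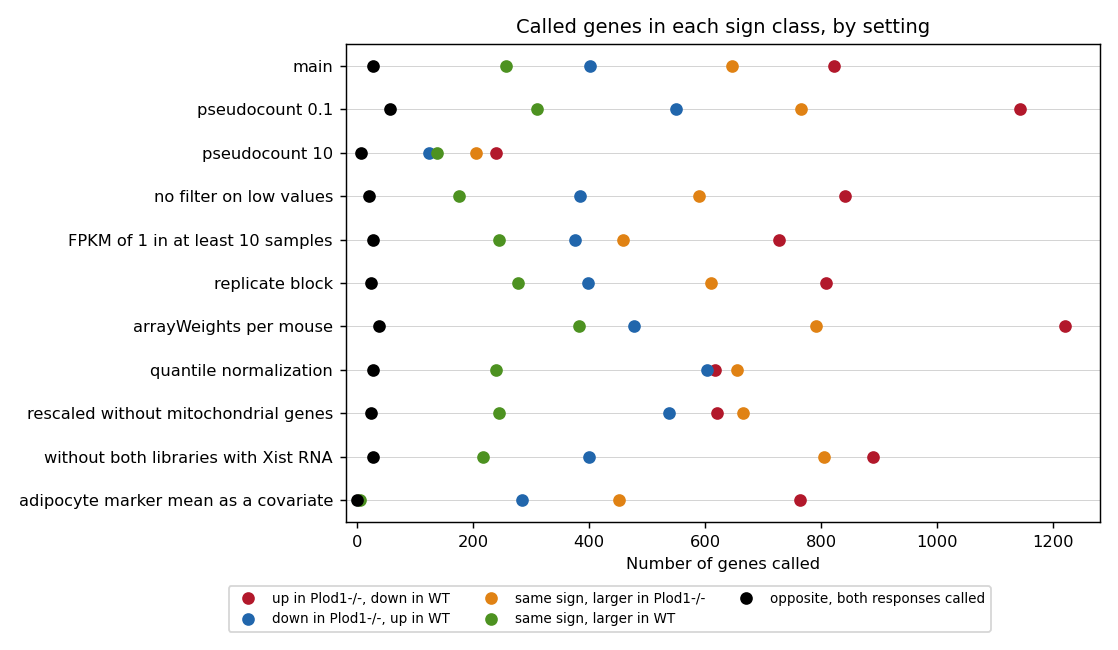
The number of genes called in each sign class, and of genes with opposite responses that were both called, on the horizontal axis for the values as reported (main) and each alternative setting. Points of the class up in Plod1-/- and down in WT (823 as reported) and of the reverse class (402) come together at 617 and 604 after quantile normalization, and the class larger in WT is at 5 with the adipocyte covariate.

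The thresholds cut through a continuous range. On the adjusted p, Gm25708, a short RNA gene, was just inside (0.04994) and Plin5, a lipid droplet protein, just outside (0.05003). On size, Nthl1, a DNA glycosylase, was just inside at -1.001, and Iqgap1, a scaffold protein that overlaps Gm44649, was just outside at 0.9999.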

How the data were processed

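Abdominal aortas of 20 mice, 5 for each genotype and treatment, were sequenced 14 days after pump implantation, and the sample labels gave the groups. The authors deposited 1 FPKM value for each Ensembl gene and library, made by removing ribosomal RNA reads, aligning with HISAT2 and quantifying with stringtie, cuffquant and cuffnorm. The submitters' processing notes name Bowtie2 2.2.3, HISAT2 2.1.0 and HTSeq 0.6.0, and the build mm10. Symbols came from GENCODE M21 (43226 of 43422 genes matched). The tables hold no counts, so a count model was not used and depth is unknown. FPKM depends on all other genes in a library, and no strand setting is given in the sources used here.

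Group means of log2(FPKM + 1) were fitted with limma 3.58.1 (R 4.3.3, eBayes with a variance trend) on all 20 libraries, and p-values were adjusted by Benjamini-Hochberg over the 13263 tested genes. Genes of opposite sign were those whose estimates differed in sign. The number after each estimate is its SE, and n is 5 mice in every group. The labels do not say whether the mice of a group came from separate litters, so p-values measure the spread between these mice. The fit was run on simulated data with known opposite and same-sign differences. Noise there was drawn separately for each gene, so the simulation cannot speak to shifts that many genes share. The members, lists and tests were chosen with earlier results of these data known. The named genes are, in each opposite class, the 10 protein-coding genes with the largest smaller response, in each same-sign class and direction the 5 with the largest difference, the 6 smallest p-values, the genes nearest the thresholds, Plod1, Thbs1, Ccl2, Il6, Mmp2 and Mmp9, and members of the 34 lists. Settings changed 1 at a time were the pseudocount, the filter, the size threshold, the scale (a square root, on which no size threshold was set), the variance trend, weights per mouse, the replicate block, normalization, and each mouse left out. Leaving out both libraries with Xist RNA and an adipocyte marker covariate were added after the data were seen. Plots were drawn with matplotlib 3.10.9. A result for 1 gene is not reported here.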

Additional observations from a re-analysis of the deposited data

Results flagged for a closer look

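In the genes shown by mouse, 120 groups of 5 mice were checked for 1 value far from the others by Dixon's criterion, and 6 met it, the number that chance gives at about 1 in 20. S100a9 was at 29.9 FPKM in saline-treated WT mouse 5, Nr4a3 at 6.00 in saline-treated Plod1-/- mouse 4 and Ucp1 at 208 in Ang II-treated WT mouse 4. Ang II-treated WT mouse 1 accounted for the other 3, with Arg1 at 6.78, Col1a1 at 187 and Hmox1 at 73.9. Among 48 groups of summed cell type markers, 4 met the criterion against 2.4 by chance. These were macrophage markers in Ang II-treated WT mouse 1 (2460), neutrophil markers in saline-treated WT mouse 5 (62.3), and adipocyte markers (1580) and nerve markers (117) in Ang II-treated WT mouse 4.

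The response to Ang II differed between the genotypes, by the limma interaction test itself, for all 30 genes shown by mouse, which were picked as called. The difference (Plod1-/- response minus WT response, log2) was positive for the early genes Fos (7.48), Fosb (6.85), Zfp36 (3.38), Nr4a3 (2.66) and Btg2 (2.12), and for Ptgs2 (4.09), Tubb6 (3.0) and Emp1 (3.31). It was positive for the inflammatory genes Ccl2 (5.96), Il6 (2.99), S100a9 (4.98), Arg1 (4.59) and Clec4n (4.59), for Hmox1 (6.47), and for the matrix and folding genes Col1a1 (3.65), Thbs1 (4.15), Serpinh1 (2.33) and Hspa5 (2.16), and for Cdc20 (2.74). It was negative for Igfbp2 (-4.21), Timp4 (-2.59), Fabp3 (-4.13), Macrod1 (-2.24) and Sphkap (-2.69), for Ucp1 (-5.27) and Hadhb (-2.84), and for Tceal6 (-3.62), Lmod1 (-1.88), Dbp (-3.04) and Tcap (-3.41).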

How the results depend on the processing

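Each of the 10 counts below is given in the order genes called, positive, negative, up in Plod1-/- and down in WT, the reverse class, larger in Plod1-/-, larger in WT, opposite with both responses called, response called in Plod1-/- mice and response called in WT mice. With a pseudocount of 10 they were 705, 387, 318, 239, 124, 205, 137, 7, 573 and 395. By the adjusted p alone they were 5017, 3150, 1867, 2362, 988, 1142, 525, 629, 5943 and 5217, and with a square root scale, also by the adjusted p alone, 4974, 3148, 1826, 2345, 982, 1121, 526, 555, 5883 and 4993. A pseudocount of 0.1 gave 57 genes with both responses called. Quantile normalization gave 604 genes in the class down in Plod1-/- and up in WT. With the adipocyte covariate, chosen after the data were seen, 457 differences were negative, 5 genes were larger in WT, and 0 genes had both responses called or a called WT response. Causes of these shifts were not tested, apart from the looser thresholds. Leaving out 1 mouse at a time gave ranges, in the same order, of 1806 to 2350, 1067 to 1479, 739 to 1013, 679 to 1083, 309 to 566, 498 to 840, 184 to 409, 19 to 39, 1649 to 2152 and 932 to 1551.

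Of 100 named genes, 89 were tested in all 33 settings, and 52 of these kept their sign and their side of the thresholds in each. The sign changed for 3 genes. With the adipocyte covariate Plin1 was at 0.0145 (adjusted p = 0.985) and Plin5, not called as reported, at 0.235. Plod1, not called in any setting, ranged from -0.13 to 0.09. The replicate numbers do not pair the mice. Over 30 pairs of samples with the same number, deviations from the group means had correlations of -0.33 to 0.45 (median -0.07), and 5 of 20 samples correlated best with their own number. With the replicate number as a block, 2094 genes were called, 24 with both responses called. The FPKM tables give no depth, so low genes have no detection limit, and log2(FPKM + 1) compresses their changes. Calls, and signs of responses near 0, depend on normalization. Of the 823 genes up in Plod1-/- and down in WT, 617 were still called after quantile normalization, 605 of them in that class. Most losses there were thus of the call and not of the sign. Of the 257 genes larger in WT, 250 were still called, and 184 of them kept the class.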

Other observations

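Several cell types outside the main groups also differed. Of 5 B cell markers tested, 2 had a called negative difference, the immunoglobulin chains Igkc and Ighm. Igkc, which overlaps Gm30211, rose in WT mice (4.47 ± 0.76, SE; limma adjusted p = 0.000574), with a response of -0.46 ± 0.76 in Plod1-/- mice, where it was already 3.91 higher than in WT mice under saline (adjusted p = 0.0172). The summed B cell markers were 4.55 to 17.8 in saline-treated WT mice and 22.9 to 657 in the other 3 groups. Of 11 nerve and Schwann cell markers, 3 had a called positive and 1 a negative difference. Dbh (4.58 in Plod1-/- and 0.55 in WT mice) and Th (3.88 and 0.39), enzymes of noradrenaline synthesis, were larger in Plod1-/-. Their calls were lost without the filter on low values and with the adipocyte covariate, which gave the highest limma adjusted p over all settings (0.0956 and 0.09). The summed nerve markers of Ang II-treated Plod1-/- mice were 70 and 81.8 in 2 mice and 278 to 465 in the other 3. Of 10 skeletal muscle markers, 4 had a called negative difference, among them Acta1 (3.86 in WT and -0.23 in Plod1-/- mice), which overlaps Gm20388. The globin genes Hbb-bt (4.03 in Plod1-/- and 0.21 in WT mice) and Hba-a1 (3.74 and 0.09) have near-identical copies, so their FPKM is uncertain.

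Of 15 endothelial markers none was called by limma, with 1 at an unadjusted p below 0.05, and the median difference of 0.09 turned to -0.02 after quantile normalization. Of 19 interferon-stimulated genes none was called, with 5 at an unadjusted p below 0.05. Of 13 fibroblast markers only Pdgfra was called (1.09 ± 0.33), and it overlaps Gm42802 and Gm42803. The 1 T cell marker tested was not called. Of 15 adipocyte markers of all kinds, 3 were called (20%), all negative, with the median response 3.17 in WT and 1.25 in Plod1-/- mice. Of 15 heat shock genes, 2 were called (13.3%), Hsp90aa1 (-1.02 in WT and 0.12 in Plod1-/- mice) and Hspa8, which hosts small nucleolar RNA genes, and the call of Hspa8 was lost in 21 of 33 settings. Of 15 glycolysis genes, 4 had a called negative difference (26.7%, against 16.1% of all genes tested), led by Pfkl (2.13 in WT and 0.36 in Plod1-/- mice). Of 18 circadian clock genes, 2 had a called positive and 2 a called negative difference (22.2%), and after quantile normalization 5 were negative. The repressor Nfil3 rose in Plod1-/- mice (2.12 ± 0.43), and Dbp, which overlaps Sphk2, fell there (-3.16 ± 0.31). Of 15 vascular potassium and calcium channels, 5 had a called negative difference (33.3%) in 3 classes, such as Kcnab1 (-2.12 in Plod1-/- and -0.83 in WT mice), which overlaps A330015K06Rik and other transcripts.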
